A study of Mus musculus with 30 samples.

Results

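The mouse genome holds most of its replication-dependent histone genes in 4 groups that carry the symbols Hist1h, Hist2h, Hist3h and Hist4h. All rows of the deposited expression table whose symbol starts with one of these prefixes were taken, which gave 59 of 20889 genes. By the letters after the prefix they are 6 linker histone H1 genes, 14 H2A genes, 17 H2B genes, 11 H3 genes and 11 H4 genes. The Hist1 group contributed 48 of them, Hist2 7, Hist3 3 and Hist4 1. Among them are the genes of 3 testis-specific proteins: Hist1h1t for the linker histone H1t, Hist1h2ba for the H2B form TH2B, and Hist1h2aa for the H2A form TH2A.

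Histones package DNA into nucleosomes, in which H2A, H2B, H3 and H4 form the core and H1 binds the linker DNA between them. The clustered genes are transcribed mainly in S phase, under NPAT, and their mRNAs end in a stem-loop bound by SLBP instead of a poly(A) tail. In male germ cells testis-specific histones are added to the somatic ones as spermatogonia enter meiosis, and in spermatids most histones are later replaced by transition proteins and protamines.

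All groups were labelled as spermatogonia from the testis of the C57BL/6 strain, and their ages in postnatal days were 0, 7, 12 or 14 (P0, P7, P12 and P14). Cells positive for the receptor KIT, a marker of differentiating spermatogonia, were taken with magnetic beads at P7, P12 and P14, and cells positive for the surface protein THY1, a marker used to enrich undifferentiated spermatogonia, at P0, P7, P12 and P14. Cells expressing GFP from an Oct4-GFP line at P0 and P7 and from an Id4-GFP line at P7 were taken by flow sorting. A further group was labelled P7 VASA THY1, but the protocol names a Vasa-GFP sort at P0 only, so its age is uncertain. No other genotype or treatment was named for any group, and whether animals were pooled is not given in the sources used here. Libraries were strand-directional and made from total RNA after removal of ribosomal RNA with a RiboZero kit, a method that does not select for poly(A) tails.

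The table gives 1 FPKM value (fragments scaled to transcript length and to the number of mapped fragments) for each of the 11 groups, from 16 libraries. The columns P0 THY1, P7 KIT, P7 THY1, P12 KIT and P12 THY1 each stand for 2 libraries and the other 6 columns for 1 library. With 1 value per group there was no replicate check and no test. Differences are given on the log2(FPKM + 1) scale, and "rose" or "fell" is used only where a difference reached 4-fold or, where stated, 2-fold, with at least 5 FPKM in the higher group. Counts are of the 59 genes, of which 50 to 55 reached 5 FPKM in a given comparison, and each count stands beside the share of all genes at 5 FPKM or more in either group that passed the same size. The bulk values cannot tell fewer cells of a type apart from less RNA per cell.

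The labels were set against marker genes. Kit itself was at 78.9, 72.5 and 103 FPKM in the KIT cells of P7, P12 and P14, against 21.3, 15.4 and 24.1 FPKM in the THY1 cells of those ages. Thy1 was low everywhere, at most 5.07 FPKM outside P0 THY1, where it was 18.3 FPKM. Id4 was at 27.7 FPKM in P7 ID4-GFP, below 62.5 in P0 OCT4-GFP, 49.1 in P14 THY1 and 29.6 in P7 THY1. In the remaining groups Id4 was at 2.85 to 26.3 FPKM. Pou5f1, the gene of OCT4, was at 37.3 FPKM in P0 OCT4-GFP, 29.2 in P7 OCT4-GFP and 36.5 in P7 ID4-GFP. Elsewhere Pou5f1 was at 2.62 to 21.0 FPKM. The germ cell gene Ddx4 was at 65.0 FPKM in P0 THY1 and at 113 to 248 FPKM in the other 10 groups. P0 THY1 had a summed level of 6918 FPKM over 10 fibroblast and stroma genes, against 56.1 to 1388 FPKM in the others. P7 THY1 held 886 FPKM of the haemoglobin gene Hbb-b2 and 101 FPKM of the spermatid gene Prm1. P14 THY1 had a summed level of 4124 FPKM over 20 late pachytene and spermatid genes, against 42.9 to 267 FPKM in the other 10 groups. The highest of them in P14 THY1 were Ldhc, Meig1 and Hspa2, at 1409, 978 and 706 FPKM. The spermatid genes Prm1, Prm2, Tnp1 and Tnp2 were low there, at 0.584 to 4.93 FPKM. The small RNA gene Rmrp, listed at 0 in P7 ID4-GFP, was at 105178 to 255813 FPKM in the other groups.

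Most of the clustered genes were detected in every group. Of the 59, 45 had at least 5 FPKM in all 11 groups, 42 reached 100 FPKM and 12 reached 1000 FPKM in at least 1 group. Hist1h2ad, an H2A gene, was listed at 0 in all groups. The other 3 genes that never reached 5 FPKM were Hist2h3b, an H3 gene with a highest value of 0.091 FPKM, Hist2h3c2-ps, an H3 gene that RefSeq lists as protein-coding despite its suffix, with a highest value of 1.49 FPKM, and Hist1h2ah, an H2A gene with a highest value of 3.30 FPKM. The core histone genes of 1 type are near-identical copies, so the counting of shared fragments could have moved signal from one copy to another, and values of single H3, H4 and non-testis H2A and H2B genes are uncertain for that reason. The 4 genes with a RefSeq span over 1000 bases (Hist1h2bc, Hist1h2be, Hist1h2bp and Hist2h2be) all had medians of 30.0 FPKM or less. Of the 55 genes that reached 5 FPKM in some group, 22 had their highest value in P14 KIT, 12 in P0 THY1 and 10 in P7 OCT4-GFP. Of all 12269 genes that reached it, 10.9% were highest in P14 KIT, 19.3% in P0 THY1 and 4.97% in P7 OCT4-GFP. P7 ID4-GFP and P14 THY1 held the highest value of 5 of the 55 each (9.09%) and P0 OCT4-GFP of 1 (1.82%). Over all genes these shares were 10.2%, 15.8% and 9.99%. The lowest value was in P12 THY1 for 20 and in P12 KIT for 10, beside 5.29% and 5.83% of all genes.

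**Figure D1:**
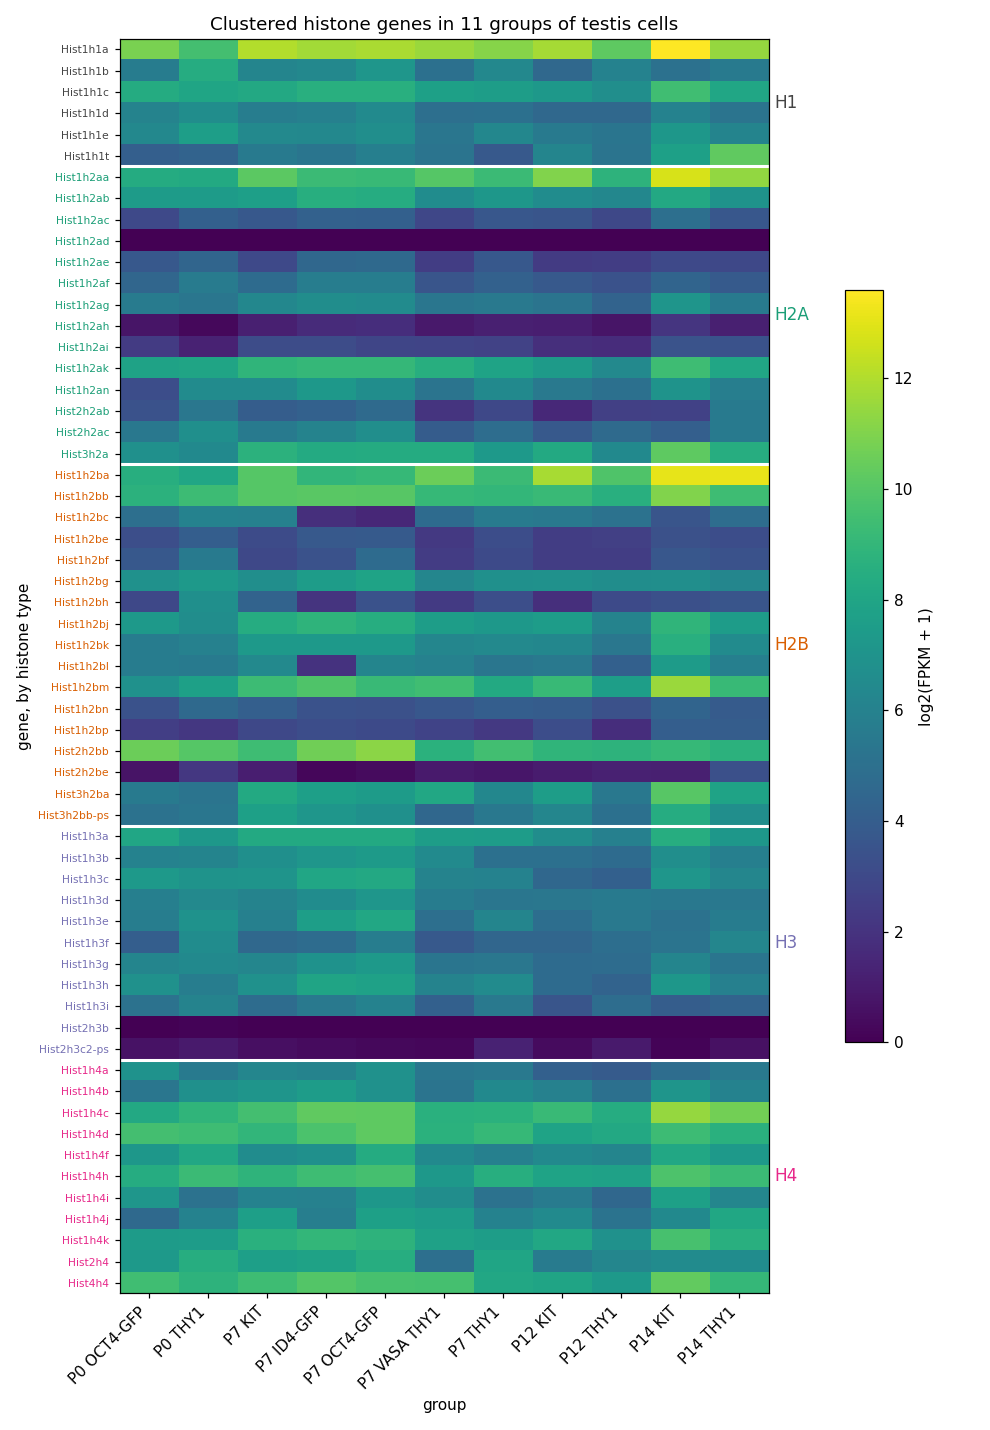
Level of each of the 59 clustered histone genes as log2(FPKM + 1) in the 11 groups, 1 value per group, with genes in rows by histone type. The highest values are those of Hist1h1a and Hist1h2aa in P14 KIT and of Hist1h2ba in P14 KIT and P14 THY1, and Hist1h2ad is at 0 throughout.

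Hist1h1t, the linker histone gene of spermatocytes, was at 16.3 FPKM in P0 OCT4-GFP and 18.8 in P0 THY1. At P7 it was at 45.8 FPKM in KIT, 38.1 in ID4-GFP, 58.1 in OCT4-GFP, 36.4 in VASA THY1 and 12.8 in THY1. At P12 it was at 72.0 FPKM in KIT and 36.8 in THY1, and at P14 at 210 FPKM in KIT and 1234 in THY1. P14 THY1 stood apart from all other groups, and P14 KIT was second.

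Hist1h2ba, the TH2B gene, was at 363 FPKM in P0 OCT4-GFP and 265 in P0 THY1. At P7 it was at 1048 FPKM in KIT, 498 in ID4-GFP, 555 in OCT4-GFP, 1486 in VASA THY1 and 613 in THY1. Its level was 3604 FPKM in P12 KIT and 909 in P12 THY1, and 8841 FPKM in P14 KIT and 8956 in P14 THY1. As deposited, the P14 groups were nearly level with each other and above every earlier group. This was not kept under quantile normalization, which sets each value by the rank of the gene in its column. For a gene among the highest of a column, such values need not keep the size of a difference. For KIT P14 minus P12 the Hist1h2ba difference was 1.29 as deposited and 0.00 under quantile normalization. For KIT minus THY1 at P14 it was -0.02 as deposited and -0.84 under quantile normalization.

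Hist1h2aa, the TH2A gene, was at 334 FPKM in P0 OCT4-GFP and 307 in P0 THY1. At P7 it was at 1152 FPKM in KIT, 619 in ID4-GFP, 572 in OCT4-GFP, 1022 in VASA THY1 and 615 in THY1. It was at 2057 FPKM in P12 KIT and 443 in P12 THY1, and at 7092 FPKM in P14 KIT and 2689 in P14 THY1. Within each age with both sorts the KIT value was the higher one. For KIT P14 minus P12 the Hist1h2aa difference was 1.79 as deposited and 0.56 under quantile normalization. For KIT minus THY1 at P14 it was 1.40 as deposited and 0.42 under quantile normalization. Hist1h2aa too was among the highest genes of these columns, where the quantile values follow rank and need not keep the size of a difference. The ratio of Hist1h2ba to Hist1h2aa was 0.805 to 1.09 in the P0 groups and in P7 KIT, ID4-GFP, OCT4-GFP and THY1, 1.45 in P7 VASA THY1, 1.75 in P12 KIT, 2.05 in P12 THY1, 1.25 in P14 KIT and 3.33 in P14 THY1. At P12 and P14 this ratio was lower in KIT than in THY1.

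**Figure D2:**
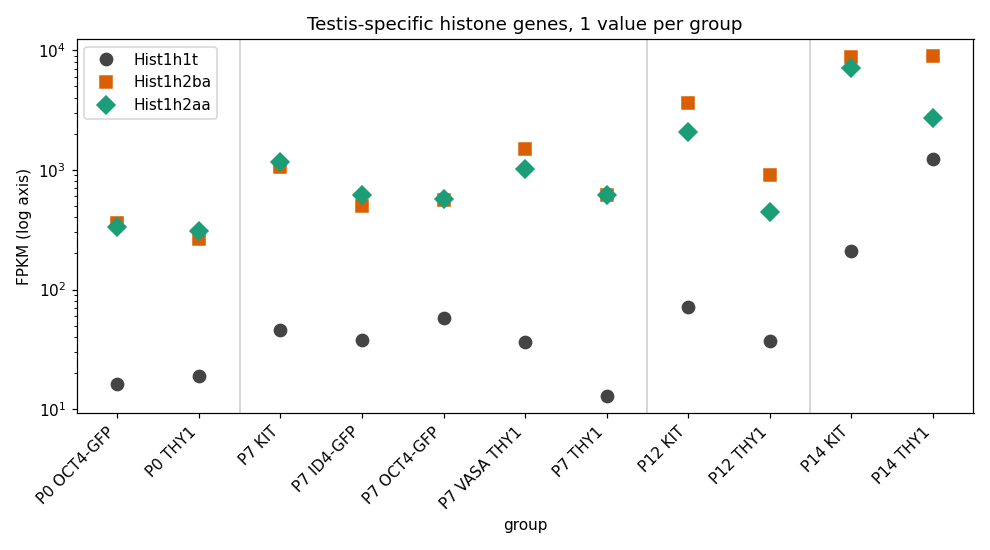
FPKM of Hist1h1t, Hist1h2ba and Hist1h2aa on a log axis in the 11 groups, 1 value per group, with vertical lines between ages. Hist1h2ba and Hist1h2aa are at 265 FPKM or more in every group, while Hist1h1t is below 100 FPKM in all groups before P14 and reaches 1234 FPKM in P14 THY1.

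Hist1h2ba and Hist1h2aa lie head to head, and 280 bases separate their RefSeq starts. The part of the shared stretch nearest Hist1h2aa is shown, because a single sequence stands upstream of both genes. The bases next to the start of Hist1h2ba are not printed. The 200 bases before the start of Hist1h2aa lie at chr13:23934237-23934436 (GRCm38.p6, plus strand, RefSeq), with motifs in capitals. The TATA box was searched as TATAAA, which reads TTTATA when it lies on the other strand. The CCAAT box, named for its letters, reads ATTGG on the other strand. The octamer was searched as ATTTGCAT, and in the sequence printed here it lies on the other strand and reads ATGCAAAT.
Hist1h2aa: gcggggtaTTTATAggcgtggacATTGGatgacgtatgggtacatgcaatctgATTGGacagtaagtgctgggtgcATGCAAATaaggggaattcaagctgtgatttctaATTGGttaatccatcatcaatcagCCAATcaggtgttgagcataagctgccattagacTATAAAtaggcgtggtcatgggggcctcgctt
A TATA box facing Hist1h2aa stood 32 bases before its start, and another, on the strand of Hist1h2ba, stood 192 bases before the start of Hist1h2aa. The octamer, bound by OCT1 in histone H2B promoters, stood 124 bases before that start.

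Promoters of 3 H1 genes are shown because their levels ran differently: Hist1h1t was highest in P14 THY1, Hist1h1a in P14 KIT and Hist1h1b in P0 THY1. Each line gives the 150 bases before the start, from chr13:23695661-23695810 (plus strand) for Hist1h1t, chr13:23763518-23763667 (plus strand) for Hist1h1a and chr13:21780626-21780775 (minus strand) for Hist1h1b, with TATA boxes, CCAAT boxes and the H1 box AAACACA in capitals.
Hist1h1t: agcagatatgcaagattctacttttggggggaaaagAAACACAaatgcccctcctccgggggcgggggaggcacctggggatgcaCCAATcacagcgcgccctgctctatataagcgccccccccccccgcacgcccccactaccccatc
Hist1h1a: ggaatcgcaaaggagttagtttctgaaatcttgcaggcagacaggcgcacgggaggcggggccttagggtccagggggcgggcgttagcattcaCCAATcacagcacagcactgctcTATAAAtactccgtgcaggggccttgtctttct
Hist1h1b: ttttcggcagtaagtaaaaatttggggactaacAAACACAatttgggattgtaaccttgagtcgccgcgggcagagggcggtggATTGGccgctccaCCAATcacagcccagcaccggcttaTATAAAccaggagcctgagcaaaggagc
The H1 box stood 114 bases before the start of Hist1h1t and 117 bases before that of Hist1h1b, and these letters were not found in the window of Hist1h1a. The TATA box was searched only as TATAAA. The stretch tatataag in the Hist1h1t line was therefore left in lower case, and its lack of capitals does not mean that Hist1h1t has no TATA box.

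RefSeq promoter windows (250 bases before to 50 after the start) were matched for 53 of the 59 genes and searched on both strands, and no hits of different motifs overlapped. The TATA letters were in 32 of the 53 windows (60.4%), against 15.7% of 27025 windows of all genes. CCAAT was in 46 of 53 (86.8%), against 41.1% of all windows: in every matched H1, H2A, H2B and H3 window and in 3 of 10 H4 windows. The octamer was in 7 of 14 H2A and 7 of 14 H2B windows and in no window of another type, against 1.97% of all windows. The H1 box was in 5 of 6 H1 windows, 2 of 14 H2A windows and 2 of 14 H2B windows, against 8.22% of all windows. Paired H2A and H2B genes share stretches of these windows, so their hits are not separate sites in every case.

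H1 mRNA came mostly from Hist1h1a, which encodes H1a, a linker histone prominent in testis. Its level was 1832 FPKM in P0 OCT4-GFP and 731 in P0 THY1. At P7 it was 4215 FPKM in KIT, 3390 in ID4-GFP, 3742 in OCT4-GFP, 2977 in VASA THY1 and 2221 in THY1. At P12 it was 3480 FPKM in KIT and 1186 in THY1, and at P14 12401 FPKM in KIT and 2774 in THY1. The P14 KIT value was 2.94 times the next highest.

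Hist1h1a made up 44.6% of the summed H1 FPKM in P0 THY1, 62.7% in P14 THY1 and 77.2% to 91.7% in the other 9 groups. In P14 THY1 Hist1h1t supplied 27.9% of the sum, against 0.489% to 2.53% elsewhere. Hist1h1b, which encodes a somatic linker histone, supplied 20.6% in P0 THY1 and 0.238% to 4.41% elsewhere. Hist1h1b was at 338 FPKM in P0 THY1, and its other values were 52.0 in P0 OCT4-GFP, 23.6 to 138 across P7 and P12, 32.2 in P14 KIT and 47.7 in P14 THY1. Hist1h1e, another somatic linker histone gene, was also highest in P0 THY1 at 198 FPKM, as was Hist1h1d at 102 FPKM. Hist1h1c, also somatic, ran between 103 FPKM in P12 THY1 and 692 FPKM in P14 KIT. P0 THY1 was the group with the most fibroblast and stroma RNA, and the part of that RNA in the 3 H1 levels highest there was not tested.

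**Figure D3:**
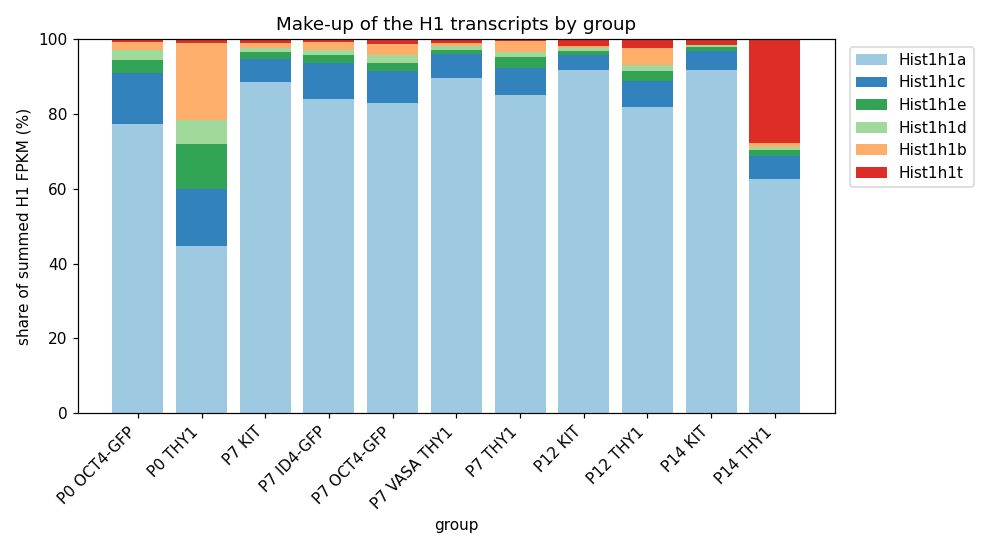
Share in percent of each H1 gene in the summed H1 FPKM of each group, 1 value per group, as stacked bars. Hist1h1a fills 77.2% to 91.7% of the bar except in P0 THY1 (44.6%), where Hist1h1b takes 20.6%, and in P14 THY1 (62.7%), where Hist1h1t takes 27.9%.

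Among the H2A genes Hist1h2aa was the highest in all 11 groups and supplied 25.9% to 74.7% of the summed H2A FPKM. Hist3h2a, the H2A gene of the Hist3 group, was second by median (318 FPKM) and ran between 86.7 FPKM in P12 THY1 and 1209 FPKM in P14 KIT. Hist1h2ak had a median of 260 FPKM and Hist1h2ab one of 175 FPKM. Hist2h2ab, next to Hist1h2aa the H2A gene with the widest range, was at 48.0 FPKM in P14 THY1 and 41.7 FPKM in P0 THY1 and at 1.99 FPKM in P12 KIT.

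H2B genes differed more from group to group in which one led. Hist2h2bb led at P0 and in P7 ID4-GFP, OCT4-GFP and THY1. It was at 1479 FPKM in P0 OCT4-GFP, 1034 in P0 THY1, 1578 in P7 ID4-GFP and 2392 in P7 OCT4-GFP, and at 407 to 713 FPKM in the other groups after P0. Hist1h2ba led in P7 KIT, P7 VASA THY1 and all P12 and P14 groups, and its share of summed H2B FPKM was 9.26% in P0 THY1 and 78.2% in P14 THY1. Hist1h2bb had a median of 639 FPKM and Hist1h2bm one of 580 FPKM, and both were highest in P14 KIT, at 2085 and 3025 FPKM. Hist1h2bl had the widest range of the type, with 2.99 FPKM in P7 ID4-GFP and 16.7 to 175 FPKM in the other groups.

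H3 genes were lower. Their summed level was 299 FPKM in P12 THY1 and 310 FPKM in P12 KIT at the low end and 1449 FPKM in P7 ID4-GFP and 1687 FPKM in P7 OCT4-GFP at the high end. Hist1h3a led in all 11 groups, with a median of 188 FPKM. Hist1h3c (median 128 FPKM) and Hist1h3h (92.1 FPKM) had the widest ranges, with 292 FPKM in P7 OCT4-GFP and 17.2 FPKM in P12 THY1 for Hist1h3c and 245 FPKM in P7 ID4-GFP and 19.1 FPKM in P12 THY1 for Hist1h3h. Hist1h3g had a median of 70.8 FPKM. Of the 11 H3 genes, 5 were highest in P7 OCT4-GFP and 1 in P14 KIT, whereas 5 of the 11 H4 genes and 8 of the 17 H2B genes were highest in P14 KIT. Of all genes that reached 5 FPKM in some group, 4.97% were highest in P7 OCT4-GFP and 10.9% in P14 KIT.

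H4 genes were led by Hist4h4 (median 665 FPKM), Hist1h4c (590), Hist1h4d (560) and Hist1h4h (464). Hist1h4c was at 2769 FPKM in P14 KIT and 1667 FPKM in P14 THY1, and at 1260 FPKM or less in the other groups. Hist2h4, with the widest range of the type, was at 29.7 FPKM in P7 VASA THY1 and 352 FPKM in P0 THY1. Hist1h4j ran between 24.0 FPKM in P0 OCT4-GFP and 272 FPKM in P14 THY1.

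KIT cells were set against THY1 cells of the same age to ask how histone transcripts differ between these sorts. At P14 the late pachytene and spermatid genes summed to 183 FPKM in KIT and 4124 FPKM in THY1. The sorts are therefore not ranked by stage of differentiation here. At P7, 15 of the 59 genes were at least 2-fold higher in KIT and none 2-fold lower, beside 2.78% of all genes higher and 2.73% lower. The median difference of the 59 was 0.70, against 0.03 over all genes. Hist3h2bb-ps, an H2B pseudogene of the Hist3 group, was the 1 gene past 4-fold, at 209 FPKM in KIT and 42.1 in THY1 (difference 2.28), and none fell that far, beside 0.316% of all genes higher and 0.448% lower. Next came Hist3h2ba at 306 FPKM in KIT and 77.0 in THY1 (1.98), Hist1h3b at 110 FPKM in KIT and 31.1 in THY1 (1.79), and Hist1h1t (1.76). Against P7 VASA THY1 in place of P7 THY1 the Hist1h1t difference was 0.32, short of 2-fold. By type the median differences were 0.71 for H1, 0.52 for H2A, 0.77 for H2B, 0.34 for H3 and 0.76 for H4. P7 KIT also had a summed level of 1349 FPKM over 10 Leydig cell genes, against 259 FPKM in P7 THY1, and its part in the histone difference was not tested.

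At P12, 13 genes were at least 2-fold higher in KIT and 3 lower, beside 4.66% of all genes higher and 6.51% lower, and the median difference was 0.33, against 0.02 over all genes. The genes past 4-fold were Hist1h2aa (2.21) and Hist3h2ba, at 186 FPKM in KIT and 43.2 in THY1 (2.09), with none 4-fold lower, beside 0.287% of all genes higher and 0.208% lower. Hist1h2ba was just short of 4-fold (1.99). Under quantile normalization of the columns Hist1h2aa was short of it as well (1.73), and Hist3h2a passed it (2.21, against 1.82 without it). The 3 genes at least 2-fold lower in KIT were Hist1h1b (-1.40), Hist1h3i (-1.30) and Hist1h2bh (-1.19). The H3 median was -0.09, with 0 of 11 H3 genes 2-fold higher, and the other type medians were between 0.36 for H2A and 0.65 for H2B. Over 15 Sertoli cell genes the summed level was 635 FPKM in P12 KIT and 1585 FPKM in P12 THY1, and its part in the histone difference was not tested.

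At P14 the range of histone differences was the widest of these ages in both directions. Of the 59 genes 55 reached 5 FPKM, and the counts lower in KIT were below the shares of all genes. In KIT, 23 genes were at least 2-fold higher and 7 lower, beside 8.58% of all genes higher and 15.7% lower, with a median of 0.73 against 0.12 over all genes. Past 4-fold, Hist1h2bm rose to 3025 FPKM in KIT, against 569 in THY1 (2.41), Hist3h2ba to 1077 in KIT, against 239 in THY1 (2.17), and Hist1h1a to 12401 in KIT, against 2774 in THY1 (2.16), beside 0.419% of all genes higher. The genes 4-fold lower in KIT were Hist2h2ab, at 5.23 FPKM in KIT and 48.0 in THY1 (-2.98), Hist1h1t (-2.55), and Hist2h2be, an H2B gene at 1.30 FPKM in KIT and 8.87 in THY1 (-2.10), beside 6.60% of all genes lower. Under quantile normalization Hist1h1a (1.08), Hist1h2bm (1.85) and Hist2h2be (-1.76) were short of 4-fold. Hist1h1a was among the highest genes of both columns, where the quantile values follow rank. The H3 median was 0.03, and the H2A median of 1.03 was the highest of the types. All 3 of these lower genes were highest of all groups in P14 THY1, the group with the highest sum over the late pachytene and spermatid genes. Of that list, Ldhc and Hspa2 were at 31.9 and 61.0 FPKM in P14 KIT and at 1409 and 706 FPKM in P14 THY1. The spermatid genes Prm1 and Tnp1 were low in both, at 1.40 and 3.84 FPKM in P14 KIT and 1.46 and 4.93 in P14 THY1. The part of late pachytene and spermatid RNA in the P14 differences was not tested.

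**Figure D4:**
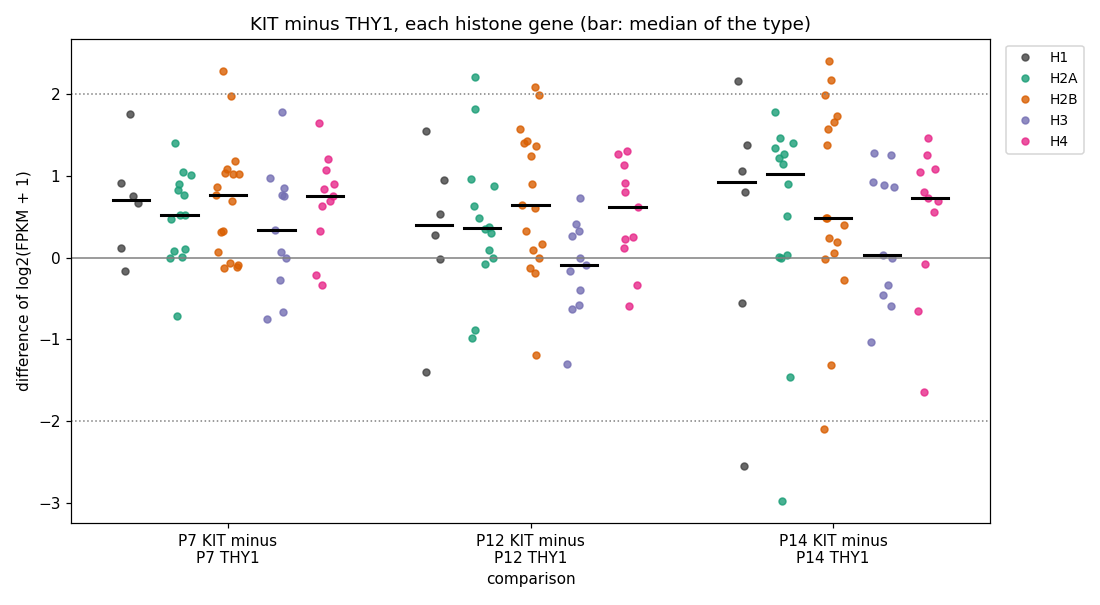
Difference in log2(FPKM + 1) between KIT and THY1 cells at P7, P12 and P14 for each clustered histone gene, by type, with a bar at the median of each type and dotted lines at 4-fold. Most points at P7 are above 0 and none is below -0.75, while at P14 points range between -2.98 and 2.41.

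The 3 genes of the Hist3 group were each higher in KIT than in THY1 at all 3 ages. Hist3h2a was at 433, 309 and 1209 FPKM in KIT at P7, P12 and P14, against 163, 86.7 and 351 FPKM in THY1. Over the 11 groups the Pearson r of log2(FPKM + 1) between Hist3h2a and Hist3h2ba was 0.993, as a description of 11 columns that share library preparation and overall RNA make-up. For Hist1h2ba and Hist1h2aa r was 0.947, and for Hist1h1t and Hist1h2ba 0.859.

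Comparisons between ages share columns with each other and with the comparisons of sorts, so each is given on its own. In OCT4-GFP cells, a flow-sorted group at both ages, P7 minus P0 gave 29 histone genes at least 2-fold higher and 1 lower, beside 2.49% of all genes higher and 3.00% lower. The median difference was 1.02, against -0.01 over all genes, and it was between 0.69 for H2B and 1.16 for H4 in all 5 types. Past 4-fold were Hist1h2an, an H2A gene at 102 FPKM at P7 and 8.41 at P0 (3.46), Hist1h4j, at 208 FPKM at P7 and 24.0 at P0 (3.06), Hist1h3e, at 288 FPKM at P7 and 52.5 at P0 (2.43), Hist1h2bm (2.36) and Hist1h4c (2.04), beside 0.148% of all genes higher. Hist1h2bc fell to 1.87 FPKM at P7, against 30.0 at P0 (-3.44), beside 0.137% of all genes lower. The median difference was -0.30 over 30 S phase genes and 0.00 over 20 G2 and M phase genes, and none of those 50 reached 2-fold. Each OCT4-GFP column is 1 library.

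In THY1 cells P7 minus P0 gave more genes lower than higher, among the histone genes as among all genes. Of the 59 histone genes 53 reached 5 FPKM, and the counts lower were above the shares of all genes. At least 2-fold lower at P7 were 13 genes and higher 4, beside 17.2% of all genes lower and 6.34% higher, and the median was -0.37 against 0.00. None rose 4-fold, beside 0.634% of all genes, and 6 fell 4-fold, beside 5.86%: Hist1h2bh to 8.48 FPKM at P7, against 109 at P0 (-3.54), Hist1h2bf (-2.48), Hist2h2ab (-2.47), Hist1h4f (-2.22), Hist1h3f (-2.11) and Hist1h1b, at 81.0 FPKM at P7 and 338 at P0 (-2.04). The 4 genes at least 2-fold higher at P7 were Hist1h1a (1.60), Hist1h2ai (1.34), Hist1h2ba (1.21) and Hist3h2ba (1.03). Under quantile normalization Hist1h1a (2.22) and Hist1h2ai (2.00) passed 4-fold. With P7 VASA THY1 in place of P7 THY1 the median was -0.72, with 3 genes 4-fold higher and 9 lower. The 10 fibroblast and stroma genes summed to 331 FPKM at P7 and 6918 FPKM at P0, and their part in the histone differences was not tested.

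The median histone difference between P12 and P7 was below 0 in both sorts. In THY1 cells P12 minus P7 gave 14 genes at least 2-fold lower and 1 higher, beside 2.32% and 6.10% of all genes, with a median of -0.68 against 0.02. Hist1h3h fell 4-fold, to 19.1 FPKM at P12, against 92.1 at P7 (-2.21), and none rose 4-fold, beside 0.399% of all genes lower and 0.968% higher. The 1 gene 2-fold higher was Hist1h1t (1.46). With P7 VASA THY1 in place of P7 THY1 the median was -0.25, and 5 genes were 4-fold lower. The 15 Sertoli cell genes summed to 1585 FPKM in P12 THY1 and 747 FPKM in P7 THY1, with a median difference of 1.06. Hbb-b2 was at 2.96 FPKM in P12 THY1 and 886 in P7 THY1, and Prm1 at 0 in P12 THY1 and 101 FPKM in P7 THY1. In KIT cells 23 genes were at least 2-fold lower at P12 than at P7 and 1 higher, beside 4.07% and 5.83% of all genes, with a median of -0.87 against -0.00. The gene that was higher was Hist1h2ba (1.78), and Hist1h3c, at 21.9 FPKM at P12 and 129 at P7, had the greatest decrease (-2.51). The 10 Leydig cell genes summed to 329 FPKM in P12 KIT and 1349 FPKM in P7 KIT, with a median difference of -1.49 and 8 of 10 at least 2-fold lower. Over 8 endothelial genes the median difference was -1.36. The part of these other cell types in the P12 differences was not tested.

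Between P14 and P12 it was above 0 in both sorts. In THY1 cells P14 minus P12 gave 31 genes at least 2-fold higher and 0 lower, beside 15.9% and 16.6% of all genes, with a median of 1.12 against -0.07. Past 4-fold were 11 genes higher and 0 lower, beside 6.60% and 5.49% of all genes. Hist1h1t had the greatest increase (5.03), then Hist1h2ba (3.30) and Hist2h2ab, at 48.0 FPKM at P14 and 4.91 at P12 (3.05). Without the 3 testis-specific genes the median over the other 56 was 1.05, and 8 of them were past 4-fold. Under quantile normalization Hist1h2aa (1.87, against 2.60 without it), Hist1h4c (1.94) and Hist3h2a (1.65) were short of 4-fold. The 20 late pachytene and spermatid genes summed to 4124 FPKM in P14 THY1 and 62.6 FPKM in P12 THY1, with 13 of 20 past 4-fold higher and a median difference of 4.41. In KIT cells 37 genes were at least 2-fold higher at P14 than at P12 and 1 lower, beside 5.52% and 11.2% of all genes, with a median of 1.45 against -0.00. Hist1h3c, at 142 FPKM at P14 and 21.9 at P12 (2.64), Hist3h2ba (2.52) and Hist1h3h, at 146 FPKM at P14 and 25.6 at P12 (2.46), led, and Hist1h2bc was lower, at 10.8 FPKM at P14 and 43.4 at P12 (-1.92). Both P14 columns are 1 library each. The 15 Sertoli cell genes summed to 97.5 FPKM in P14 KIT and 635 FPKM in P12 KIT, and to 68.2 FPKM in P14 THY1 and 1585 FPKM in P12 THY1. The part of both lists in these differences was not tested.

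**Figure D5:**
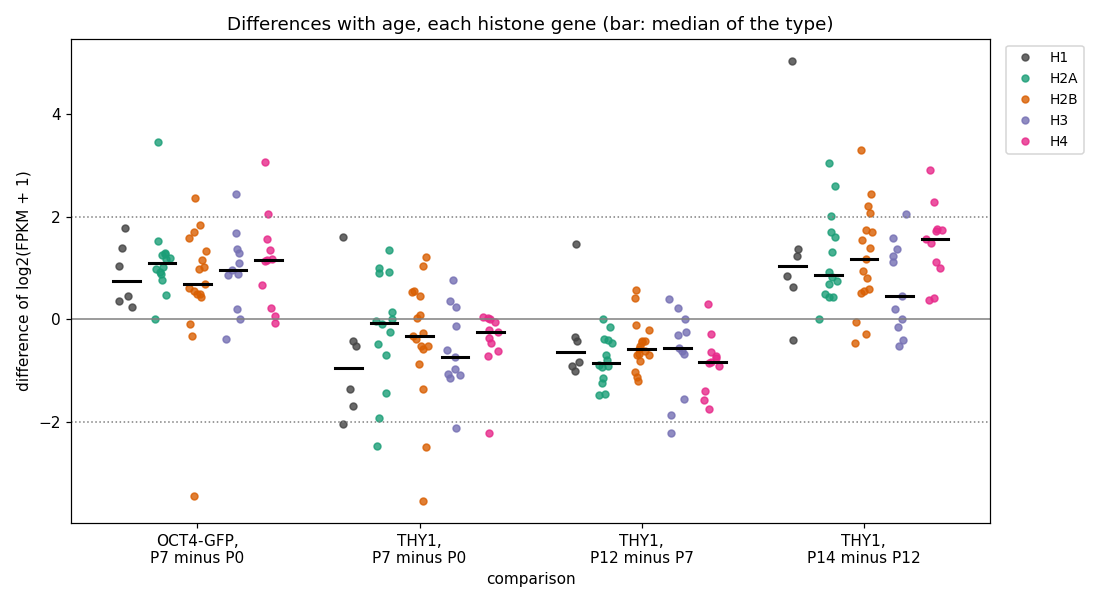
Difference in log2(FPKM + 1) between ages for each clustered histone gene, by type, in OCT4-GFP cells (P7 minus P0) and THY1 cells (P7 minus P0, P12 minus P7, P14 minus P12), with a bar at the median of each type and dotted lines at 4-fold. Medians of all 5 types are above 0 for OCT4-GFP and for P14 minus P12 and below 0 for the other 2 comparisons, and the highest point is Hist1h1t at 5.03.

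GFP-sorted cells were also set against THY1 cells of the same age. At P7, OCT4-GFP minus THY1 gave 32 histone genes at least 2-fold higher and 1 lower, beside 8.88% and 11.8% of all genes, with a median of 1.06 against 0.12. Hist1h4f was at 331 FPKM in OCT4-GFP and 59.0 in THY1 (2.47), Hist1h3b at 171 FPKM in OCT4-GFP and 31.1 in THY1 (2.42), and the gene that was lower was Hist1h2bc, at 1.87 FPKM in OCT4-GFP and 49.7 in THY1 (-4.14). Over 10 macrophage genes the summed level was 249 FPKM in OCT4-GFP and 44.6 FPKM in THY1, and its part in the histone difference was not tested. At P0, 4 genes were at least 2-fold higher in OCT4-GFP and 16 lower, beside 14.5% and 21.9% of all genes, with a median of -0.27 against 0.03. Hist1h2bh was at 6.78 FPKM in OCT4-GFP and 109 in THY1 (-3.83), Hist1h2an at 8.41 FPKM in OCT4-GFP and 93.6 in THY1 (-3.33) and Hist1h1b at 52.0 FPKM in OCT4-GFP and 338 in THY1 (-2.68). The median was -0.44 with a pseudocount of 0.1 and -0.41 under quantile normalization. The 10 fibroblast and stroma genes summed to 82.2 FPKM in OCT4-GFP and 6918 FPKM in THY1, with a median difference of -6.67 and 9 of 10 past 4-fold lower, and their part in the P0 difference was not tested. S phase genes had a median difference of 1.40 there, with 22 of 30 at least 2-fold higher in OCT4-GFP and 0 lower. Between the flow-sorted P7 groups, ID4-GFP minus OCT4-GFP had a median of -0.11 over the 59 genes, against 0.04 over all genes. At least 2-fold higher in ID4-GFP were 0 of the 59 and lower 6, beside 2 higher and 153 lower of 9157 genes. Hist1h2bl was at 2.99 FPKM in ID4-GFP and 70.6 in OCT4-GFP (-4.16).

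Genes that act on histone mRNA, on histone proteins and in the cell cycle were set beside the histone genes. Over 27 genes of histone mRNA transcription and 3′ end processing the median difference was 0.01, 0.34 and 0.32 for KIT minus THY1 at P7, P12 and P14, and none passed 4-fold. Npat, the coactivator of histone transcription, was at 34.9 FPKM in P7 KIT and 37.2 in P7 THY1, at 63.1 FPKM in P12 KIT and 30.4 in P12 THY1, and at 52.2 FPKM in P14 KIT and 17.9 in P14 THY1. Slbp, the stem-loop binding protein gene, was at 119 FPKM in P7 KIT and 105 in P7 THY1, at 108 FPKM in P12 KIT and 60.0 in P12 THY1, and at 153 FPKM in P14 KIT and 111 in P14 THY1. Over 20 chaperone and chromatin assembly genes the medians were 0.05, 0.37 and 0.08 for these 3 comparisons, with Asf1b, an H3 and H4 chaperone gene, at 96.9 FPKM in P12 KIT and 27.6 in P12 THY1 (1.78). Over the 30 S phase genes they were 0.31, 0.72 and 0.90, with 1, 11 and 13 genes at least 2-fold higher and 0 lower, and Ccne2, a cyclin gene of the G1 to S transition, past 4-fold at P12 (77.1 FPKM in KIT and 18.0 in THY1).

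For the age comparisons the 30 S phase genes had median differences of 0.54 for THY1 P7 minus P0, -0.55 for THY1 P12 minus P7, 0.21 for THY1 P14 minus P12, -0.11 for KIT P12 minus P7 and 0.43 for KIT P14 minus P12. The median over the 27 processing genes was between -0.15 and 0.28 in those 5 comparisons. Over 11 replacement histone genes outside the clusters the median difference was 0.06, -0.01 and 0.23 for KIT minus THY1 at P7, P12 and P14. Among them H2afx, the gene of the H2A.X variant, was at 500, 294 and 1877 FPKM in KIT at P7, P12 and P14, against 195, 95.1 and 793 FPKM in THY1. The macroH2A gene H2afy was at 25.1 FPKM in P14 KIT and 99.6 in P14 THY1 (-1.94), and H2afy2, another macroH2A gene, at 4.59 FPKM in P14 KIT and 13.9 in P14 THY1 (-1.42). Over 24 meiotic prophase genes the median difference was 2.02 for KIT P12 minus P7, with 20 genes at least 2-fold higher, while the histone median there was -0.87.

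Histone transcripts are short, so other short genes were set beside them. Of 1101 other protein-coding genes with a RefSeq span of at most 1000 bases, 23 to 29 reached 5 FPKM in a comparison. Their median difference was 0.22, -0.24 and -0.29 for KIT minus THY1 at P7, P12 and P14, 0.05 for OCT4-GFP P7 minus P0, -0.44 for THY1 P12 minus P7 and -0.69 for KIT P12 minus P7. For P14 minus P12 it was 0.64 in THY1 and 0.79 in KIT. The part of transcript length in the histone differences was not tested.

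The 53 genes with a matched window held 8 head-to-head pairs with starts under 400 bases apart, and each joined an H2A gene with an H2B gene. In 7 pairs both genes were above 0, and r over the 11 groups was between 0.155 for Hist1h2ak with Hist1h2bn and 0.949 for Hist1h2ag with Hist1h2bj. Partners often differed in level: Hist1h2ak had a median of 260 FPKM and Hist1h2bn one of 13.8 FPKM, and Hist1h2bf one of 9.82 FPKM beside Hist1h2ad at 0. Hist1h2ba and Hist1h2aa, with medians of 909 and 619 FPKM, were closer than that.

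Among 12214 other genes with at least 5 FPKM in at least 1 group, those whose log2(FPKM + 1) ran most like Hist1h1t over the 11 groups were Katnal1 (r = 0.971), Cyp2r1 (0.964), 1810074P20Rik (0.960), Phospho2 (0.960) and 1500011H22Rik (0.958). For Hist1h2ba they were D9Ertd402e (0.975), Zfp612 (0.971), Tmem129 (0.961), Pde6d (0.957) and Sdf2l1 (0.955). For Hist1h2aa they were Tmem129 (0.976), Zfp39 (0.962), Uchl4 (0.960), Uchl3 (0.957) and Tbccd1 (0.947). In P14 KIT these genes were at 5.24 to 91.4 FPKM.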

How the data were processed

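RNA from sorted testis cells was sequenced in 16 libraries of 30 samples in the series; 8 bisulfite and 6 chromatin immunoprecipitation and input samples were not analysed here. The deposited table holds FPKM values that the authors made per gene, 1 column per group. The submitters' processing notes name CASAVA, TopHat2 2.0.9, Cufflinks 2.1.1 and the mm9 build, without their order; the gene annotation and how 2 libraries gave 1 column are not given in the sources used here. Depth per library is unknown, so no interval was computed and a value of 0 has no stated limit.

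From the FPKM values log2(FPKM + 1) differences were computed with Python 3.11.15, numpy 2.4.6 and pandas 2.3.3, the calls being 4-fold (or 2-fold) with at least 5 FPKM in the higher group. Background shares are over genes at 5 FPKM or more in either group, a stricter base than all rows. The counting step was tested on simulated data. Genes were matched to RefSeq by older symbols (all 59; 10 list symbols likewise). Named are the testis-specific genes, all H1 genes, per type the 4 highest medians and 2 widest ranges, and in each comparison the genes past 4-fold, at most 3 per direction. Where a count was 6 or fewer, or a gene stood out (Hist1h2bc, Hist1h3b, Hist1h3i, the longer genes, Npat, Slbp, H2afx), further names were chosen after their values were seen. Members and lists were chosen with earlier results of these data known, and the short-gene list was added after seeing values. Alternatives were a pseudocount of 0.1, no minimum, 2-fold, quantile normalization and P7 VASA THY1 in place of P7 THY1. Quantile normalization sets values by rank, so among the highest genes of a column it need not keep the size of a difference.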

Additional observations from a re-analysis of the deposited data

Results flagged for a closer look

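In 4 genes the KIT minus THY1 difference was at least 2-fold in one direction at one age and at least 2-fold in the other direction at another, and none of these differences between ages was tested, since each group has 1 value. Hist1h1t was higher in KIT at P7 (1.76 on the log2 scale) and lower at P14 (-2.55). Hist2h2ab was higher in KIT at P7 (1.05) and lower at P14 (-2.98). Hist1h4j was higher in KIT at P7 (1.65) and P12 (1.31) and lower at P14 (-1.65). Hist1h2bh was higher in KIT at P7 (1.08) and lower at P12 (-1.19), at levels of at most 19.0 FPKM in those columns. Against P7 VASA THY1 in place of P7 THY1 the P7 differences were 0.32 for Hist1h1t and 0.20 for Hist1h4j, both short of 2-fold, and 1.92 for Hist2h2ab and 1.99 for Hist1h2bh. Hist1h1t then had no age at which it was 2-fold higher in KIT, and for Hist1h4j P12 was the one left. The first 3 genes were each highest in P14 THY1. Values of Hist2h2ab, Hist1h4j and Hist1h2bh are uncertain, because shared fragments could have moved between near-identical copies. The summed H4 level at P14 was higher in KIT (7257 FPKM) than in THY1 (4312 FPKM), unlike Hist1h4j.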

How the results depend on the processing

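No paired analysis was possible because the table has 1 value per group, and for the same reason no replicate could be left out. The count of genes past 4-fold stayed within 1.5 times under a pseudocount of 0.1 and with no minimum in all 7 comparisons. At 2-fold it was 15, 16 and 30 for KIT minus THY1 at P7, P12 and P14, 17, 15 and 31 for THY1 P7 minus P0, P12 minus P7 and P14 minus P12, and 30 for OCT4-GFP P7 minus P0. Quantile normalization, which shifted the median of all genes by between -0.55 in P0 THY1 and 0.44 in P7 ID4-GFP, gave 2 instead of 1 at P7 and 3 (1 higher, 2 lower) instead of 6 at P14 for KIT minus THY1, and 5 counts stayed within 1.5 times. With P7 VASA THY1 in place of P7 THY1 the counts were 2 for KIT minus THY1 at P7, 12 (3 higher, 9 lower) for THY1 P7 minus P0 and 5 for THY1 P12 minus P7; the cause was not tested. The median difference of the 59 genes kept its sign in all 30 alternative values, but with P7 VASA THY1 it was -0.72 instead of -0.37 for THY1 P7 minus P0 and -0.25 instead of -0.68 for THY1 P12 minus P7. No difference of a testis-specific gene past 4-fold reversed, but Hist1h2aa lost that size under quantile normalization for KIT minus THY1 at P12 (1.73) and THY1 P14 minus P12 (1.87). Hist1h1t lost it for OCT4-GFP minus THY1 at P7 with P7 VASA THY1 (0.66). Hist1h2ba gained it for THY1 P7 minus P0 with P7 VASA THY1 (2.48) and, under quantile normalization, for VASA THY1 minus THY1 at P7 (2.04). Unknown depth and 1 value per group limit every statement.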
